A study of Mus musculus with 6 samples.

Results

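Genes for extracellular antagonists of Wnt signalling were followed in GFP-positive cells sorted from the molars and from the skull of mice. The family held 10 genes, Wif1, Sfrp1, Sfrp2, Frzb, Sfrp4, Dkk1, Dkk2, Dkk3, Notum and Apcdd1, out of 16593 genes named on the array. They were taken by gene symbol and covered by 12 of 25697 probes. The genes were selected on their known function and with the log2 signals of both groups in view, in which Wif1 lay higher in cementoblasts, so the differences between the groups are a description here and no test is drawn from them.

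Illumina bead arrays were run on 3 samples of cementoblasts, the cells that coat the tooth root with mineral, and on 3 samples of calvarial osteoblasts, the bone-forming cells of the skull roof. All animals were C57Bl6/J mice of both sexes with the genotype OC-GFP, and cells of both groups were sorted on that reporter, which is known as a mark of osteocalcin-expressing cells. Cementoblast replicates 1, 2 and 3 pooled 7, 10 and 6 mice aged 6 to 7, 5 to 6 and 6 to 7 weeks. Osteoblast replicates 1, 2 and 3 pooled 6 mice each, aged 6, 5 to 6 and 6 to 7 weeks. The labels give the source of the cementoblasts as periodontium, name no treatment, and do not say which promoter fragment drives the reporter or whether the same mice gave both tissues. Each sample was a pool, so the replicate spread given here is one between pools and not between single mice.

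Wnt ligands are lipid-modified proteins that bind a Frizzled receptor together with the co-receptor Lrp5 or Lrp6 and so stabilise beta-catenin, a pathway that drives bone formation and also acts in tooth root formation. Antagonists act outside the cell in several ways. Wif1 and the secreted Frizzled-related proteins, Sfrp1, Sfrp2, Sfrp4 and Frzb, bind Wnt ligands. Dkk1 and Dkk2 bind Lrp5 and Lrp6 and take them out of reach, with the help of Kremen proteins. Notum is an enzyme that cuts the lipid off Wnt ligands, and Apcdd1 is a glycoprotein held in the membrane that binds ligand and co-receptor. Notum and Apcdd1 are known as genes that Wnt signalling itself switches on.

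The arrays differed in brightness, with 9791, 10059 and 10040 probes detected in cementoblasts and 8480, 13347 and 12922 in osteoblasts. Of the osteoblast marker list, all 8 genes on the array were detected on all 6 arrays. Their median difference was -0.62, with 1 of the 8 positive and 0 called by limma over all genes (1 at an unadjusted p under 0.05). Of all genes, 0.321% were called and 6.92% had such an unadjusted p. The mean log2 signal of the list was 11.79, 11.28 and 12.80 on cementoblast replicates 1, 2 and 3, against 12.56, 12.25 and 12.39 in osteoblasts. On its brightest probe Bglap, the gene for osteocalcin, had 13.21, 11.76 and 14.07 in cementoblasts and 14.07, 14.07 and 13.23 in osteoblasts. These levels are close to the highest normalized signal, 14.21, where differences are compressed: the bead signal of Col1a1, which encodes a chain of type I collagen, was 5489, 6226 and 14103 in cementoblasts and 23844, 25612 and 20858 in osteoblasts. A dimmer probe of Bglap had 5.89, 4.51 and 7.10 in cementoblasts against 10.26, 8.22 and 7.19 in osteoblasts, without overlap. The third Bglap probe had 12.71, 11.20 and 13.87 against 13.90, 13.90 and 13.37, with overlap. Sost, a Wnt antagonist made by embedded osteocytes, was detected on no array. Of the 6 osteocyte markers, Sost among them, 2, 2 and 4 were detected on cementoblast replicates 1, 2 and 3. On osteoblast replicates 1, 2 and 3 the numbers were 3, 4 and 3. Of 17 markers of epithelium, cementoblast replicates 1, 2 and 3 detected 14, 13 and 2 and osteoblast replicates 1, 2 and 3 detected 3, 4 and 2, and their summed normalized signal was 6085, 5620 and 538 in cementoblasts, against 405 to 514 in osteoblasts. Of 13 endothelial markers, 12, 12 and 3 were detected in cementoblasts and 4, 10 and 12 in osteoblasts, with summed signals of 345 to 1899 in cementoblasts and 433 to 816 in osteoblasts. Of 8 macrophage markers, 8, 8 and 2 were detected on cementoblast replicates 1, 2 and 3, against 3, 8 and 8 on osteoblast replicates 1, 2 and 3, with summed signals of 343 to 6133 in cementoblasts and 258 to 6503 in osteoblasts. The 15 neutrophil markers had summed signals of 49470, 17080 and 5213 in cementoblasts and of 1493, 14383 and 12287 in osteoblasts. Within each group, the endothelial, macrophage and neutrophil sums were lowest on cementoblast replicate 3 and on osteoblast replicate 1.

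Values below are log2 signals after background correction and quantile normalization, on which the edge of detection lay between 4.37 and 5.11 depending on the array. Different probes are not set against each other, so levels are compared between arrays of one gene. A gene was tested if a probe of it was detected on at least 3 of the 6 arrays. Of the 10 antagonists, 8 met this; Dkk1 was detected on 2 osteoblast arrays and Dkk2 on none.

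**Figure D1:**
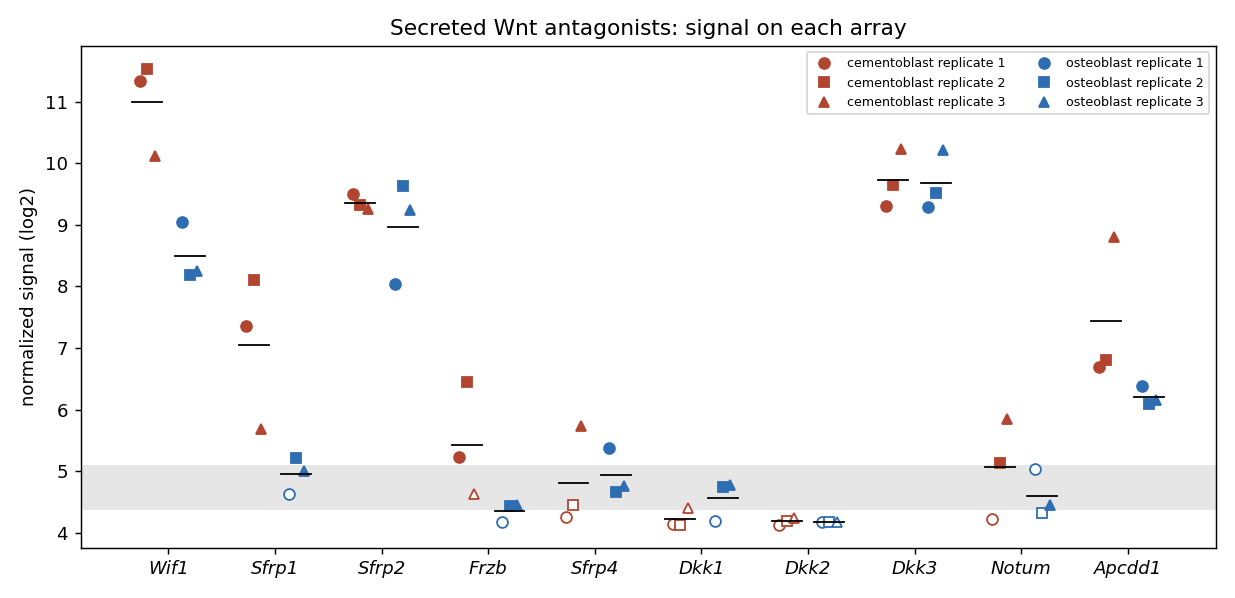
Log2 normalized signal of the brightest probe of each antagonist on each array, cementoblasts in red to the left and osteoblasts in blue to the right, with the mean of each group as a bar; open symbols are arrays on which the probe was not detected and the grey band is the range of the edge of detection. Wif1, Sfrp1, Frzb and Apcdd1 lay higher on all 3 cementoblast arrays than on any osteoblast array, while Dkk1 and Dkk2 stayed at background in cementoblasts.

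The promoter sequences of 3 members are shown: Wif1 and Frzb, whose signals were higher on all cementoblast arrays, and Dkk1, which was detected on 2 osteoblast arrays and on no cementoblast array. RefSeq promoters of build GRCm38.p6 were at hand for 5 of the 10 members, Wif1, Sfrp2, Frzb, Dkk1 and Dkk2. The 250 bases before the start site are printed 5′ to 3′ on the strand of the gene, with capitals at matches to any of 5 short motifs searched on both strands.
Wif1, chr10:121033754-121034003, plus strand: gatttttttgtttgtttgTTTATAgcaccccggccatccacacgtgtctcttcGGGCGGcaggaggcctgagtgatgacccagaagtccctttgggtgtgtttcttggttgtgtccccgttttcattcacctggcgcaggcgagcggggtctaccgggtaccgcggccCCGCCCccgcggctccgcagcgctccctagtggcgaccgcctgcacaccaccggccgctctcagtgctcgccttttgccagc
Frzb, chr2:80447397-80447646, minus strand: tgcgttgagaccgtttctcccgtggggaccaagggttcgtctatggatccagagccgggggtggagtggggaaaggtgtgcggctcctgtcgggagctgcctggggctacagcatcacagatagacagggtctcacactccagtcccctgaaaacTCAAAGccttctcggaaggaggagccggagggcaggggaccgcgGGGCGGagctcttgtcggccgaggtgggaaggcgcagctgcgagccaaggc
Dkk1, chr19:30549497-30549746, minus strand: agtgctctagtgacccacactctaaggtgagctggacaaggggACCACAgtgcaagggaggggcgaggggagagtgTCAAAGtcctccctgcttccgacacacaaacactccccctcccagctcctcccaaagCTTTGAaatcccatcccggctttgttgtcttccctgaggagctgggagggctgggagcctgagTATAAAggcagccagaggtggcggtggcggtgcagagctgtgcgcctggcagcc
The TCF/LEF core CTTTGA, the letters bound by the transcription factors that end the Wnt pathway, had 2 matches in Dkk1, which began 174 and 117 bases before the start site, 1 match in Frzb at 95 bases and no match in the windows of Wif1, Sfrp2 and Dkk2. Of 32851 such windows over all genes, 13.8% held it. The RUNX core TGTGGT, the letters of the osteoblast factor Runx2, had 1 match in Dkk1, at 207 bases, and none in the other 4 windows, against 14% of all windows. The homeodomain core TAATTA matched in none of the 5, against 4.84% of all windows. The TATA box TATAAA had 1 match each in Wif1 (reverse strand), Dkk1 and Dkk2, at 232, 54 and 32 bases before the start, against 12.4% of windows, and the GC box GGGCGG had 2 matches each in Wif1 and Dkk2 and 1 in Frzb, against 32.7%. No pair of these motifs overlapped in the printed windows. A match describes the letters of the window and no more.

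Wif1, which binds Wnt ligands through its own WIF domain, had the largest difference of the 8 tested antagonists. Its log2 signal was 11.33, 11.54 and 10.11 on cementoblast replicates 1, 2 and 3, against 9.05, 8.19 and 8.24 on osteoblast replicates 1, 2 and 3. It was detected on all 6 arrays, and the lowest cementoblast array stood above the highest osteoblast array. Cementoblasts averaged 10.99 ± 0.77 and osteoblasts 8.49 ± 0.48 (SD, n = 3 each), which differ by 2.50 (SE 0.43, 95% interval 1.49 to 3.51), or 5.66-fold. In sorted cells measured in bulk, fewer cells that make a transcript and less of it per cell cannot be told apart.

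The groups were apart for Wif1 after normalization between arrays and overlapped before it. As deposited, its bead signal was 1047, 1201 and 688 in cementoblasts, against 213, 562 and 974 in osteoblasts, so the raw signal of osteoblast replicate 3 exceeded that of cementoblast replicate 3. The median bead signal of all probes was 82.7, 78.5 and 81.7 in cementoblasts and 81.2, 95.6 and 111.1 in osteoblasts, with the brightest array being osteoblast replicate 3. On the log2 scale of the values that the submitters had normalized, Wif1 stood at 12.64, 12.79 and 11.12 in cementoblasts and 9.74, 9.13 and 9.18 in osteoblasts, again without overlap. The deposited bead signals of Sfrp1, Frzb and Apcdd1 overlapped between the groups as well. Their lowest cementoblast signals were 94.3, 83.2 and 100.1, against 148.2, 113.9 and 274.3 on osteoblast replicate 3.

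**Figure D2:**
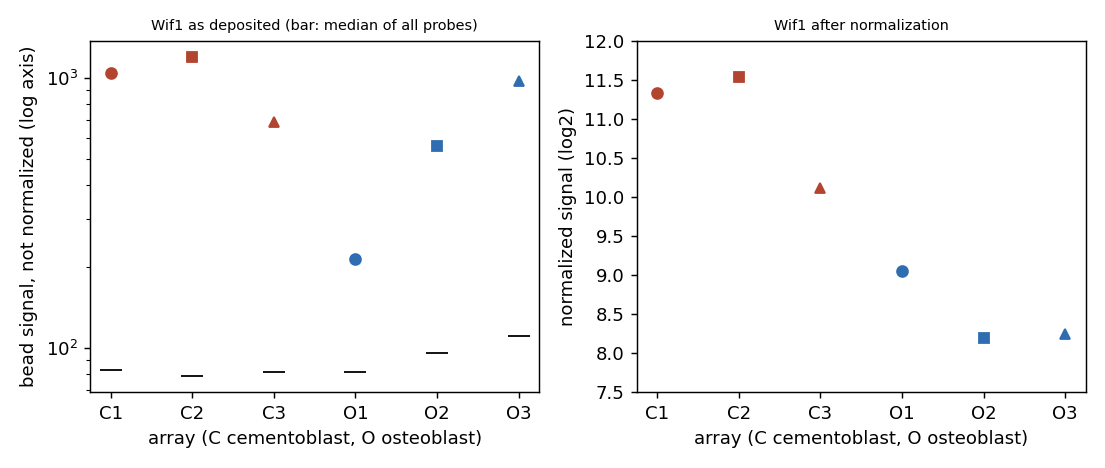
Wif1 on the 6 arrays, 3 of cementoblasts (C, red) and 3 of osteoblasts (O, blue): at left the deposited bead signal on a log axis with the median of all probes as a bar, at right the normalized log2 signal. The bead signals of the groups overlapped, with 974 on osteoblast replicate 3 and 688 on cementoblast replicate 3, and the normalized signals did not.

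Sfrp1, a secreted protein with a Frizzled-like cysteine-rich domain, had the same array order within cementoblasts. Its log2 signals were 7.36, 8.10 and 5.68 in the cementoblast samples, against 4.62, 5.22 and 5.01 in osteoblasts. All cementoblast arrays and 2 of 3 osteoblast arrays detected it, and the groups did not overlap after normalization. Cementoblasts averaged 7.05 ± 1.24 and osteoblasts 4.95 ± 0.30 (SD, n = 3 each), which differ by 2.10 (SE 0.57, 95% interval 0.77 to 3.43); the osteoblast signals lay near background. The difference was 0.86 with no background correction and 1.21 with the submitters' values.

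Frzb, the secreted Frizzled-related protein also called Sfrp3 and known from cartilage, lay near the edge of detection in both groups. Its log2 signal was 5.23, 6.45 and 4.62 in cementoblasts, against 4.18, 4.44 and 4.46 in osteoblasts. The cementoblast arrays lay higher, but replicate 3 did not detect the gene and stood only just above the osteoblast arrays, of which 2 detected it. The difference was 1.07 (SE 0.45, 95% interval 0.04 to 2.11), where cementoblasts averaged 5.43 ± 0.93 and osteoblasts 4.36 ± 0.16 (SD, n = 3 each). It was 0.33 with no background correction, 0.63 with the submitters' values and 0.62 without cementoblast replicate 2.

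The higher Wif1, Sfrp1 and Frzb signals of cementoblast replicates 1 and 2 fell on arrays with epithelial, endothelial and macrophage markers. Osteoblast replicates 2 and 3, which carried the endothelial and macrophage markers too, had the lower Wif1 signals of their group. Sfrp1 and Frzb, near background in osteoblasts, went the other way. Sfrp1 had 4.62 on osteoblast replicate 1 and 5.22 and 5.01 on replicates 2 and 3, and Frzb had 4.18, 4.44 and 4.46. Krt14, a keratin of basal epithelium, had log2 signals of 11.57, 11.18 and 4.47 on cementoblast replicates 1, 2 and 3 and of 4.17 to 4.49 in osteoblasts. The osteoblast marker list had its lower means on the same cementoblast replicates 1 and 2. The part of epithelial or other cells in the 3 differences was not tested. Cementoblast replicate 3 detected 2 of the 17 epithelial markers; Krt14 and Krt5 were not detected there, while Ambn, the enamel matrix gene ameloblastin, had 8.29, 9.81 and 6.82 in cementoblasts against 5.78, 4.87 and 5.25 in osteoblasts and was detected on all 6 arrays. Replicate 3 was also set alone against the osteoblasts, an alternative added after the data were seen. There Wif1 differed by 1.60 and Sfrp1 by 0.85, and Frzb was detected on too few of the 4 arrays to be tested. Without cementoblast replicate 3 the differences were 2.92, 2.84 and 1.57.

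The other 2 secreted Frizzled-related proteins gave overlapping groups. Sfrp2, which binds Wnt ligands as Sfrp1 does, was detected on all 6 arrays, at 9.51, 9.32 and 9.26 in cementoblasts against 8.03, 9.64 and 9.25 in osteoblasts. The cementoblast arrays stood close together and osteoblast replicate 1 stood low. The difference was 0.39 (SE 0.41, 95% interval -0.56 to 1.34), and it was -0.08 without osteoblast replicate 1 and -0.14 with arrays scaled to their 75th percentile. Sfrp4, known for its part in the making of cortical bone, was near background, at 4.25, 4.45 and 5.73 in cementoblasts against 5.37, 4.66 and 4.76 in osteoblasts. It was detected on 1 cementoblast array and on all 3 osteoblast arrays. Its difference of -0.12 (SE 0.43, 95% interval -1.11 to 0.87) took the other sign, at 0.68, with 75th percentile scaling, and was -0.63 without cementoblast replicate 3, the array that detected it.

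Of the Dickkopf genes, those for the co-receptor ligands Dkk1 and Dkk2 were detected on no cementoblast array. Dkk1, an inhibitor of Lrp5 and Lrp6 and a brake on bone formation, stood at 4.14, 4.13 and 4.39 in cementoblasts against 4.19, 4.75 and 4.77 in osteoblasts. It was detected on osteoblast replicates 2 and 3 and on no cementoblast array, and the groups overlapped. No fold is given, since the gene was below detection on 4 of the 6 arrays and was not tested. Dkk2, another ligand of the co-receptors, stood at 4.13 to 4.24 in cementoblasts and 4.17 to 4.18 in osteoblasts and was detected nowhere.

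Dkk3, a divergent family member whose role in Wnt signalling is unsettled, was detected by its brightest probe on all 6 arrays. Its brightest probe had 9.31, 9.64 and 10.23 on cementoblast replicates 1, 2 and 3 and 9.29, 9.51 and 10.22 on osteoblast replicates 1, 2 and 3. Arrays of one group lay further apart than the group means, with cementoblasts at 9.73 ± 0.46 and osteoblasts at 9.67 ± 0.48 (SD, n = 3 each). The difference was 0.06 (SE 0.35, 95% interval -0.76 to 0.87), an interval that leaves room for a difference in either direction. On another probe cementoblasts averaged 9.41 ± 0.47 and osteoblasts 9.39 ± 0.47 (SD, n = 3 each), and the third was detected on no cementoblast array and on 2 osteoblast arrays. With 75th percentile scaling the difference of Dkk3 was -0.38, and without single arrays it lay between -0.19 and 0.35.

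Notum and Apcdd1 had their highest signals on the cementoblast array where Wif1, Sfrp1 and Frzb were lowest of the 3. Apcdd1 was detected on all 6 arrays, at 6.68, 6.81 and 8.80 on cementoblast replicates 1, 2 and 3, against 6.38, 6.09 and 6.15 in osteoblasts. The groups did not overlap after normalization, but replicates 1 and 2 stood only slightly above the osteoblast arrays. The difference of 1.22 (SE 0.54, 95% interval -0.03 to 2.48) rested on replicate 3: it was 0.54 without that array and 2.66 with that array set alone against the osteoblasts. With no background correction it was 0.66. Notum stood at 4.21, 5.13 and 5.85 in cementoblasts, against 5.03, 4.32 and 4.44 in osteoblasts. Cementoblast replicates 2 and 3 and osteoblast replicate 3 detected it, the groups overlapped, and the difference was 0.47 (SE 0.43, 95% interval -0.53 to 1.47), or 1.19 with 75th percentile scaling, 0.12 with no background correction and 0.23 with the submitters' values.

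**Figure D3:**
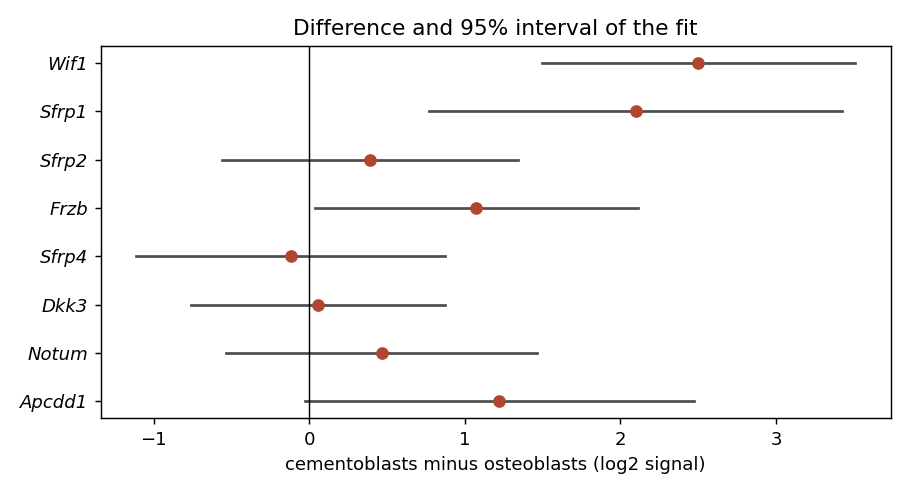
Difference of the log2 signal, cementoblasts minus osteoblasts, for the 8 antagonists tested, each as a point with its 95% interval from the fit over all genes (n = 3 per group). The intervals of Wif1, Sfrp1 and Frzb lay above 0 and those of the other 5 genes held 0; the genes were picked with these values known.

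Read over the 8 tested antagonists, 7 differences were above 0, where 47.5% of all 8111 tested genes were, and the median difference was 0.77, where that of all genes was -0.02. In 4 of the 8 all cementoblast arrays stood above all osteoblast arrays, as in 5.72% of all genes, and in none did they stand below, as in 5.57%. A difference of at least 1 in either direction was seen in 4 of the 8, where 5.6% of all genes had one. These counts describe genes picked for the same contrast and are no evidence about the family. None of the 8 passed limma's test at an adjusted p under 0.05, which 0.321% of all genes did (0.148% higher and 0.173% lower in cementoblasts), and 3 had an unadjusted p under 0.05, as 6.92% of all genes had. The smallest limma adjusted p was that of Wif1, at 0.0858 over all genes. Left without cementoblast replicate 3, Wif1 and Sfrp1 had limma adjusted p = 0.0119 and 0.0125. Wif1 also passed with the number in the sample titles as a random block (limma adjusted p = 0.0332). It passed too with trend and robust variance (limma adjusted p = 0.0485) and with array weights (0.00252). Sfrp1 also passed with array weights (limma adjusted p = 0.0137). Of 16 alternative choices, Wif1 thus passed under 4 and Sfrp1 under 2. Under the rest neither passed, with limma adjusted p of up to 0.391 for Wif1 and 0.828 for Sfrp1. Over all genes, the 4 settings called more than the 12 higher and 14 lower of 8111 as reported. The counts were 111 and 88 of 8111 with array weights, and 88 and 61 of 7597 without cementoblast replicate 3. They were 38 and 36 of 8111 with the title number, and 17 and 23 of 8111 with trend and robust variance. No test is drawn from these values, since the genes were picked for the contrast.

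A pair of known feedback genes of the pathway followed the array order of Apcdd1 within cementoblasts; they were named after their values were seen. Axin2, a scaffold of the complex that destroys beta-catenin, had 5.65, 6.20 and 8.14 on cementoblast replicates 1, 2 and 3, against 6.16, 5.39 and 5.98 in osteoblasts. Nkd2, an inhibitor of Dishevelled, had 6.58, 7.42 and 9.63 in cementoblasts, against 6.51, 6.36 and 6.71 in osteoblasts. Relative to the osteoblast mean, cementoblast replicate 3 stood at 2.59 for Apcdd1, 2.29 for Axin2 and 3.10 for Nkd2, where replicates 1 and 2 stood between -0.20 and 0.89. Wif1 ran the other way, at 2.84, 3.04 and 1.62. Among all tested genes 47.3% had replicate 3 as the highest cementoblast array and 33.2% had it as the lowest, and among the 8 antagonists there were 4 of each. Neither Axin2 nor Nkd2 passed the test (limma adjusted p = 0.934 and 0.820). Other downstream genes were mixed. Ccn4, Ccn5 and Tnfrsf19 were also highest on replicate 3 among cementoblasts, and a probe of Lef1 was detected on that array only. The brightest probe of Ccnd1 was highest on replicate 2 (8.62, 9.26 and 9.03). Ccn4 on replicate 3 (9.98) lay below its osteoblast mean of 10.28, and Nkd1 and Sp5 were detected on no cementoblast array.

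**Figure D4:**
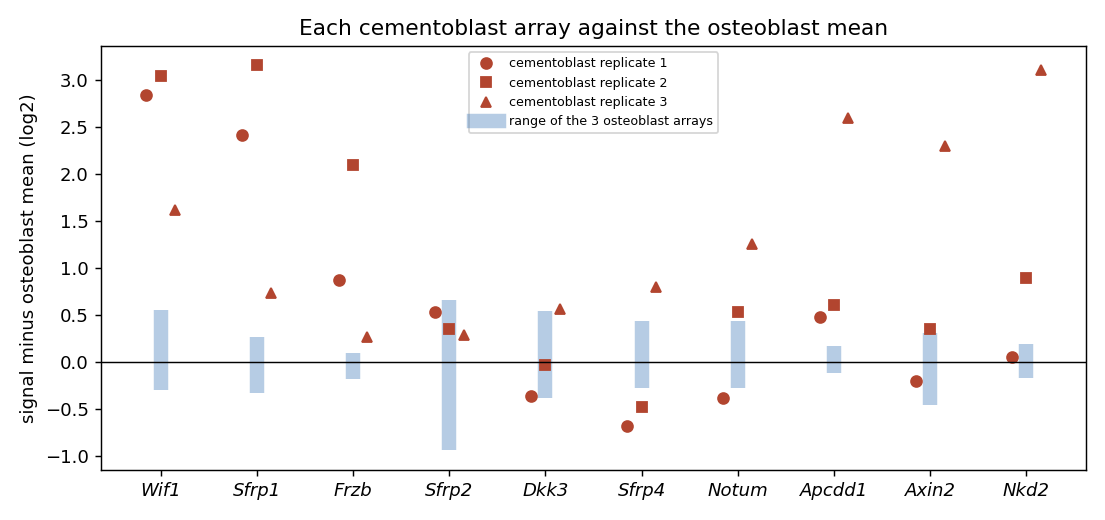
Log2 signal on each of the 3 cementoblast arrays minus the mean of the 3 osteoblast arrays, for the 8 tested antagonists and the feedback genes Axin2 and Nkd2; the pale bars give the range of the osteoblast arrays. Replicate 3 (triangles) was lowest of the 3 for Wif1, Sfrp1, Frzb and Sfrp2 and highest for Dkk3, Sfrp4, Notum, Apcdd1, Axin2 and Nkd2.

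Of 8 further genes for secreted antagonists set up as a list, 2 were tested. Igfbp4, an IGF-binding protein that can also bind Frizzled, stood at 12.10, 12.26 and 9.23 in cementoblasts against an osteoblast mean of 9.89, so that replicates 1 and 2 were again the high ones. Sostdc1, a relative of Sost that acts in tooth development, was detected on 2 arrays of each group, with a difference of 0.18 (SE 0.49). Neither passed (limma adjusted p = 0.885 and 0.997). Sfrp5, Sost and Cer1 were detected on no array, Dkk4 on osteoblast replicate 1, Draxin on osteoblast replicate 2 and Dkkl1 on 1 array of each group.

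The targets of the antagonists on the cell surface were read from a list of 27 receptors and surface regulators, of which 15 were tested. None passed limma's test over all genes, which 0.321% of all genes did, so that 0 calls say little about a list this short. An unadjusted p under 0.05 was had by 4 of them and by 6.92% of all genes, and the median difference was -0.19. Lrp5, the co-receptor that Dkk1 binds, stood at 4.22, 4.20 and 5.46 in cementoblasts against 7.13, 5.58 and 5.80 in osteoblasts, without overlap, and 1 cementoblast array detected it (difference -1.54, SE 0.51, limma adjusted p = 0.510). The other co-receptor, Lrp6, lay near background, with a difference of -0.19. Lrp4, a receptor that carries sclerostin and Dkk1, had a difference of -0.98 (SE 0.40, limma adjusted p = 0.685). Fzd2, a Wnt receptor, stood at 6.25, 6.55 and 6.35 in cementoblasts against 4.37, 5.67 and 5.79 in osteoblasts (difference 1.11, SE 0.40, limma adjusted p = 0.568). Kremen1, the partner of Dkk1 and Dkk2, had 6.49 to 7.81 in cementoblasts and 7.55 to 7.77 in osteoblasts, and Kremen2 was detected on 2 osteoblast arrays.

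Ligands, which Wif1 and the Frizzled-related proteins bind, and downstream genes gave no call either. Of 25 genes for ligands, their export and R-spondins, 11 were tested. Of these, 0 passed limma's test over all genes, against 0.321% of all genes. An unadjusted p under 0.05 was had by 4, against 6.92% of all genes. Wnt10a had 5.83, 5.85 and 8.05 in cementoblasts and was not well above background in any osteoblast sample, which bounds it at least 3.87-fold higher in cementoblasts (limma adjusted p = 0.226), or at least 2.32-fold without cementoblast replicate 3. The brightest probe of Wnt7b, also detected on no osteoblast array, was at least 3.01-fold higher in cementoblasts (limma adjusted p = 0.530), or at least 1.63-fold without cementoblast replicate 3, while another probe of it was detected on 1 osteoblast array and gave overlapping groups. Rspo3, an amplifier of Wnt signalling, had 4.20, 4.28 and 4.96 in cementoblasts against 5.70, 6.66 and 6.44 in osteoblasts, where 1 cementoblast array and all 3 osteoblast arrays detected it (limma adjusted p = 0.115). Of 24 intracellular and target genes, 15 were tested and 0 passed, against the same 0.321% of all genes. An unadjusted p under 0.05 was had by 3, against 6.92% of all genes, namely Ccnd1 (0.90), Ccn4 (-1.05) and Ctnnb1, the beta-catenin gene (-0.68). The other 2 probes of Ccnd1 gave overlapping groups.

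**Figure D5:**
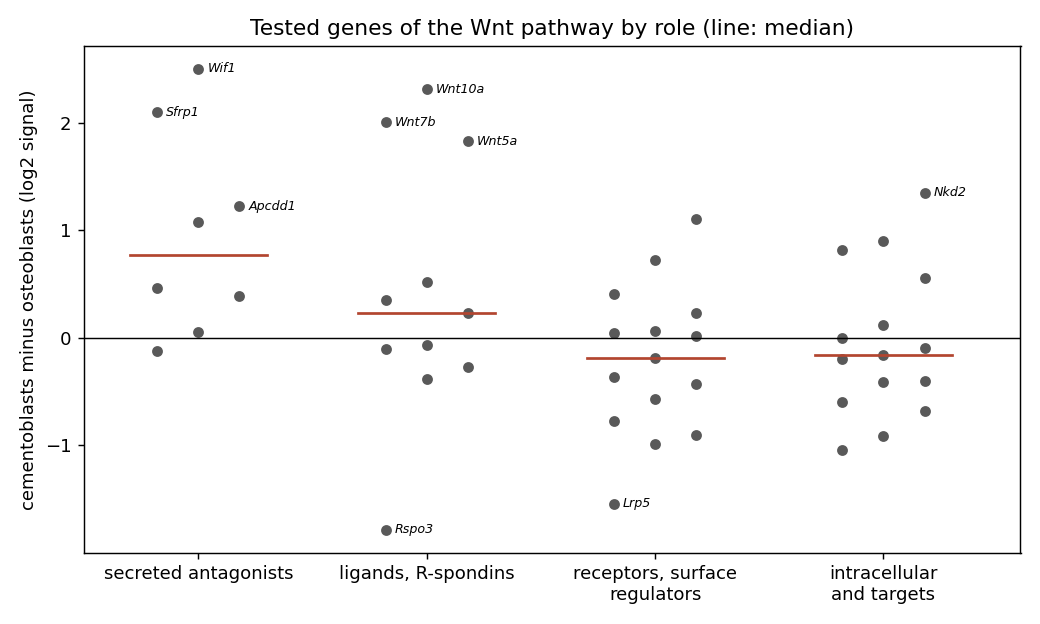
Difference of the log2 signal, cementoblasts minus osteoblasts, for each tested gene of the pathway (n = 3 arrays per group), in 4 columns by role, with the median of each column as a line and genes past 1.2 in either direction named; Wnt10a and Wnt7b are plotted at their fitted differences, although their osteoblast signals were below detection. The medians were 0.77 for the secreted antagonists, 0.23 for ligands and R-spondins, -0.19 for receptors and surface regulators and -0.16 for intracellular genes and targets. No gene plotted passed limma's test over all genes, which 0.321% of all genes did.

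The genes whose signal over the 6 arrays was most like that of Wif1 were ranked by Pearson's r among the other 8110 tested genes. The first 6 were Cbln1 (r = 0.984), Mrps35 (0.983), Rpl23 (0.982), Nectin2 (0.978), Scube3 (0.978) and Moxd1 (0.977). The 6 arrays fall into the 2 groups that Wif1 separates, so these values describe the arrays and carry no p. Scube3, a secreted protein of bone and tooth tissue, had 5.99, 6.33 and 5.40 in cementoblasts against 4.47, 4.50 and 4.31 in osteoblasts. Rpl23, a ribosomal protein gene, had 14.07, 14.21 and 13.37 in cementoblasts against 13.21, 12.90 and 12.78 in osteoblasts. Among the antagonists, Sfrp1 had r = 0.909 with Wif1 and rank 97, and Frzb had r = 0.816 and rank 305. The others ranked far down, from Apcdd1 at 1826 (r = 0.391) and Notum at 2461 (r = 0.252) to Sfrp4 at 5203 (r = -0.305).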

How the data were processed

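The deposited non-normalized table holds bead signals as intensity on a linear scale, with a detection p-value beside each, per the file headers. The second deposited table holds intensity values normalized by the submitters, with lumi per the submitters' processing notes; the method is not given in the sources used here. The labels name the third sample of each group differently from its column, and it was matched to its column by tissue code and replicate number. The function neqc (limma 3.58.1, R 4.3.3) applied a normexp background step with an offset of 16, quantile normalization and log2. A probe entered if 3 or more of the 6 arrays detected it at p under 0.05 (11198 probes), and each gene took its brightest such probe (8111 genes). Differences are cementoblasts minus osteoblasts, fitted by lmFit and eBayes, with p-values of all genes adjusted by Benjamini-Hochberg and read at 0.05; the number of arrays limits the precision. On 20 simulated data sets of 8111 genes, changes of 1, 2 and 3 were called in 13.7%, 66.8% and 88.5% of genes, and 0.0695% of unchanged genes were called. The simulated noise was normal, independent between genes and of the same spread in both groups. It held no differences between arrays in cell content, so these rates are not the sensitivity of the real arrays.

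The antagonists, the pathway and marker lists and the rule for named genes were chosen with earlier results of these data known. The rule names all antagonists, the further secreted antagonists, for each other Wnt list the genes past the test or else the 3 with the smallest p, the 6 genes most like Wif1 and a few markers. Lrp6, Kremen1, Kremen2, Axin2 and Nkd2 were added after their values were seen. Ccn5, Tnfrsf19, Lef1, Nkd1 and Sp5 were also named outside the rule. No probe was matched by name to Fzd5, Fzd9 and Lgr4 among receptors or to Axin1 and Tcf7 among downstream genes, which were not analysed here. Alternatives covered the values, background, scaling, filter, probe choice, variance model, array weights, blocks and each array left out.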

Additional observations from a re-analysis of the deposited data

How the results depend on the processing

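Wif1, Sfrp1, Frzb, Notum and Apcdd1 lay above 0 under each other choice of values, filter, model or arrays left out that gave a value, at 2.21 to 3.00, 0.86 to 2.84, 0.33 to 1.57, 0.12 to 1.19 and 0.54 to 1.62. With cementoblast replicate 3 alone, added after the data were seen, Wif1 was at 1.60, Sfrp1 at 0.85 and Apcdd1 at 2.66. Sfrp2, Sfrp4 and Dkk3 took both signs. The number of antagonists above 0 was 5 to 8 and their median difference 0.54 to 1.11 with single arrays left out, and the median was 0.31 to 1.22 over all other choices. With no filter on detection, 8 of 10 lay above 0 at a median of 0.43. The choices under which Wif1 and Sfrp1 passed are given with their results.

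Of all genes, 12 were higher and 14 lower as reported. The counts were 5 and 9 with the submitters' values, 0 and 2 with 75th percentile scaling (602 at an unadjusted p under 0.05), 4 and 4 with no filter, 27 and 23 with a stricter filter, 111 and 88 with array weights and 38 and 36 with the title number as random block. No background correction gave 5 higher and 10 lower, and trend and robust variance 17 higher and 23 lower. Cementoblast replicate 3 alone gave 0 and 0 (615 at an unadjusted p under 0.05). Leaving out single arrays gave 0 to 88 higher and 0 to 61 lower, with the highest counts without cementoblast replicate 3 and 0 of either without cementoblast replicate 2 (362 at an unadjusted p under 0.05), 0 or 1 called ligands and 0 or 1 called downstream genes (Rspo3 and Tnfrsf19, both without cementoblast replicate 3). Array weights called 2 ligand genes, Rspo3 and Wnt10a, and the title number 1, Rspo3. The causes were not tested. A replicate block left 0 higher and 0 lower genes, with 568 below an unadjusted p of 0.05, and Wif1 had an adjusted p = 0.180. Arrays with the same replicate number 1, 2 and 3 deviated from their group means with r = -0.36, 0.36 and 0.09. Arrays with different numbers had r from -0.58 to 0.49. With 3 arrays per group these values can neither show nor exclude a pairing. The replicate number was not taken as a pairing, since the labels name none. Replicates 2 of both groups share the number 28 in their titles, and replicates 3 the number 4, while replicates 1 carry 27 (cementoblasts) and 22 (osteoblasts); the labels do not say what it marks, and it is the random block above. Signals near the edge of detection limit Frzb, Sfrp4, Notum and Dkk1.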
